A study of Mus musculus with 12 samples.

Results

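The comparison sets injured mouse spinal cord from animals whose ovaries had been removed 8 weeks before the injury (OVX8_SCI7, 4 libraries) against cord from animals ovariectomized 2 weeks before it (OVX2_SCI7, 4 libraries). These are 8 of the 12 RNA-seq libraries of the series, taken by their group labels. The other 4 come from injured mice with no ovariectomy named (SCI7). They entered the filter on low counts, the normalization and the estimate of spread, but not the contrast. All animals were female C57BL/6J wild-type mice that received a clip compression of the cord at T9-T10. The tissue was the lesion with about 0.5 cm of cord on either side, taken 7 days after injury, so it mixes lesion, spared cord and any attached root or meninges. Uninjured and sham-operated mice were not analysed here. The labels give an age of 8 weeks for every mouse without saying at which step, so age at injury may differ between the groups and cannot be told apart from the time since ovariectomy. The replicates are labelled biological, and 1 batch name covers all libraries.

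Ovariectomy removes the main source of circulating estradiol and progesterone, hormones whose receptors are present in neurons, glia and immune cells. After a crush, microglia and blood-borne macrophages clear debris, glial and stromal cells divide, and astrocytes wall off a core in which fibroblasts lay down collagen and fibronectin. Ependymal cells, which line the central canal with motile cilia, border the lesion and can divide after injury. A motile cilium is built on an axoneme of doublet microtubules around a central pair and is driven by dynein motors, under the control of FOXJ1 and the RFX factors. The gene classes followed hold 488 listed genes in 31 lists. They were cilia (121 genes), proliferation (91), scar (101) and immune (175).

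No gene passed the test. Among 17820 genes tested with edgeR's quasi-likelihood test, 0 (0%) had a Benjamini-Hochberg adjusted p under 0.05, and the smallest adjusted p was 0.999. At an unadjusted p under 0.05 there were 393 genes (2.21%), of which 57 were higher (0.32%) and 336 lower (1.89%) in OVX8_SCI7. Of the 488 listed genes 463 were tested and 0 were called. DESeq2 called 6 genes (0.0337%), none of them a listed member. Without OVX2_SCI7 replicates 1 and 2, 0 (0%) were called, and 1141 of 18426 tested (6.19%) lay under 0.05 before adjustment. The biological coefficient of variation was 0.312, so a difference that misses the threshold here is not shown to be absent. The values below are therefore descriptions of 8 libraries, with log2 fold changes given as OVX8_SCI7 minus OVX2_SCI7 and their standard errors (SE).

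The OVX2_SCI7 libraries differed among themselves. Library totals were 19223127 to 20371524 counts in OVX2_SCI7 and 18279508 to 31781695 in OVX8_SCI7, so 3 counts correspond to 0.0931 to 0.162 CPM (counts scaled to a common library size). OVX2_SCI7 replicates 1 and 2 had summed neuron-marker levels of 6960 and 5730 CPM and replicates 3 and 4 had 1440 and 3030 CPM, with 2350 to 4840 CPM in OVX8_SCI7. All 12 neuron markers were tested. Summed levels of 8 oligodendrocyte markers were 33500 and 29600 CPM in replicates 1 and 2, 13700 and 21500 CPM in replicates 3 and 4, and 17900 to 23700 CPM in OVX8_SCI7. Mitochondrial genes took 8.33% of counts in OVX2_SCI7 replicate 1, whereas in the other OVX2_SCI7 and OVX8_SCI7 libraries they took 2.2% to 3.36%. In the SCI7 libraries they took 5.35% to 9.35%. Over 15087 coding genes, which are not independent replicates, the fold change and the GC content of the transcript had a rank correlation of 0.443 (Spearman). In bulk tissue, fewer cells of a type and less RNA per cell cannot be told apart. The part of tissue make-up, mitochondrial share and GC content in the differences between the groups was not tested.

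**Figure D1:**
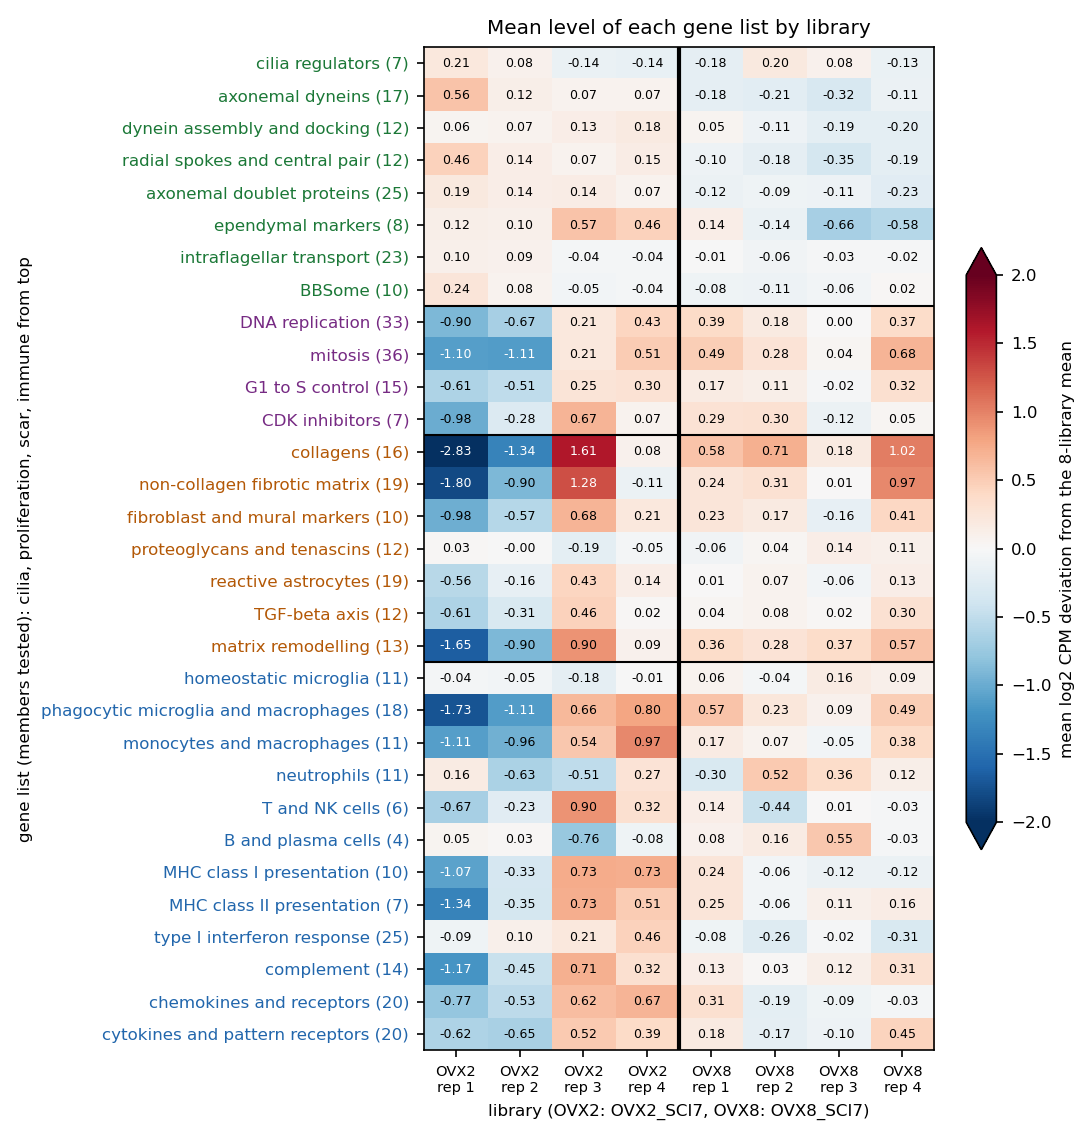
Mean level of each gene list in each of the 8 libraries (columns), as the mean over tested members of the log2 CPM deviation from the 8-library mean; the number of tested members is in brackets and label colours mark the 4 classes. Collagens run from -2.83 in OVX2_SCI7 replicate 1 to 1.61 in replicate 3, while the OVX8_SCI7 libraries lie between 0.18 and 1.02.

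The cilia class had the most even difference. Of its 121 genes 114 were tested, 97 had a log2 fold change below 0, and the median was -0.22, against -0.03 with 55.5% below 0 for all genes tested. The mean level of the class per library was 0.24, 0.11, 0.08 and 0.07 in OVX2_SCI7 replicates 1 to 4 and -0.07, -0.10, -0.18 and -0.16 in OVX8_SCI7, as deviations from the 8-library mean in log2 CPM. Every OVX8_SCI7 library lay below every OVX2_SCI7 library, with a difference in means of -0.25 (SD 0.0799 and 0.0512, n = 4 each). Among single members, 16 (14%) had all 4 OVX8_SCI7 values below all 4 OVX2_SCI7 values, where 1.08% of all genes tested did. None was arranged the other way, against 0.241% of all genes. All lists were chosen with earlier results of these data known, so these shares are descriptions only. A further member, Cfap221, had the same arrangement but was under the filter on low counts, at 0.311 to 0.557 CPM in OVX2_SCI7 and 0.132 to 0.31 CPM in OVX8_SCI7.

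RFX factors bind a palindromic promoter element, the X-box, that is known from cilia genes. It was searched on both strands as GTTNCC and NGNAAC, separated by NN (N is any base), within the 250 bases before the start site, in RefSeq promoters of build GRCm38.p6. The letters were found in 0.784% of 27025 genes with a promoter (0.667% of 32851 promoters) and in 6 of the 50 axoneme genes with a promoter in the table, of 71 listed. They were found in 0 of 19 matched intraflagellar transport genes, 0 of 8 cilia regulators and 0 of 6 ependymal markers. Among the 16 matched cilia members whose libraries did not overlap, 3 held it: Cfap44, Hydin and Spag16. Their stretches are shown because these are members described below, with the match in capitals. A match is a description of letters, not of binding.
Cfap44, chr16:44394752-44394798, + strand, 5′ to 3′: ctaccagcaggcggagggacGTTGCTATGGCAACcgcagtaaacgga
Hydin, chr8:110266936-110266976, + strand, 5′ to 3′: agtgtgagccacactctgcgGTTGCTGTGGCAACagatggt
Spag16, chr1:69826847-69826900, + strand, 5′ to 3′: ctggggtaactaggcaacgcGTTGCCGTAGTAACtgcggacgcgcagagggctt
In Cfap44 and Hydin the search letters lie on the opposite strand from the gene, and in Spag16 on the same strand.

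Among transcription factors of the programme, Foxj1, the master regulator of motile cilia, was at 26.6, 41.8, 25.8 and 34.7 CPM in OVX2_SCI7 replicates 1 to 4 and at 26.8, 38.2, 32.7 and 21.1 CPM in OVX8_SCI7, an order of replicates kept for the genes that follow. Its groups overlapped (log2 fold change -0.12, SE 0.21). Rfx3, an X-box factor, was at 25.3 CPM in OVX2_SCI7 replicate 1 and at 9.75 to 14.7 CPM in the other 7 libraries. Its log2 fold change of -0.34 (SE 0.27) was 0.03 without that library. Myb, a factor of multiciliated cells, was at 2.23, 1.11, 0.804 and 1.19 CPM against 0.793, 1.02, 0.999 and 0.756 CPM, and overlapped. Over the 7 regulators tested of 9 listed, the median was -0.12, and 0.10 without OVX2_SCI7 replicates 1 and 2.

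Axonemal dyneins, the motors of ciliary beating, were below 0 in 17 of 17 members, with a median of -0.45. Dnah6, an inner-arm heavy chain, was at 10.1, 5.89, 7.56 and 6.12 CPM in OVX2_SCI7 and at 4.23, 3.66, 4.05 and 4.59 CPM in OVX8_SCI7. The groups did not overlap, and its log2 fold change was -0.85 (SE 0.22), or -0.73 without OVX2_SCI7 replicates 1 and 2. Dnah12, another heavy chain, was at 5.73, 2.37, 2.57 and 2.95 CPM against 1.98, 1.12, 1.40 and 2.00 CPM. It too did not overlap, and its -1.07 (SE 0.31) became -0.77 without both libraries. Like most genes named from the lists, here and below, Dnah6 and Dnah12 were taken as the 2 members of smallest p. Their lack of overlap is tied to that choice. Dnah2, Dnah11 and the light-chain gene Dnali1, named after their values were seen, were the other 3 dynein members whose groups did not overlap. Their log2 fold changes were -0.55, -0.47 and -0.68. Replicate 1 was the highest of the 8 libraries in 11 of the 17 dynein genes, and the median without it was -0.21. Without both replicates it was also -0.21, with 13 members below 0 and 4 above.

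Assembly and docking factors, which fold dyneins in the cytoplasm and anchor them to the doublets, were below 0 in 9 of 12 tested members, with a median of -0.26. Ccdc103, an arm anchor, was at 1.75, 1.39, 1.66 and 2.23 CPM against 1.15, 1.40, 1.10 and 1.3 CPM and overlapped narrowly. Odad3, a docking-complex gene, was at 1.22 CPM in OVX2_SCI7 replicate 1 and 2.18 to 2.36 CPM in replicates 2 to 4, with 1.35 to 1.63 CPM in OVX8_SCI7. In this gene replicate 1 alone made the groups overlap.

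Radial spoke and central pair genes, which regulate the beat, were below 0 in 10 of 12 tested members, with a median of -0.47. Hydin, a giant central pair protein, was at 5.20, 3.62, 3.11 and 3.06 CPM against 1.90, 2.30, 2.55 and 2.10 CPM. The groups did not overlap (log2 fold change -0.76, SE 0.22, and -0.48 without OVX2_SCI7 replicates 1 and 2). Spag16, also of the central pair, was at 2.81, 0.975, 1.07 and 1.19 CPM against 0.749, 0.466, 0.30 and 0.702 CPM. It did not overlap either, and its -1.44 (SE 0.43) was -1.03 without both libraries. The lowest Spag16 values are near the level of 3 counts. The list median was -0.30 without replicate 1 and -0.30 without both, so its size moved with replicate 1 by over 1.5 times.

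Proteins of the axonemal doublets were below 0 in 22 of 25 tested members, with a median of -0.25. Cfap206, a spoke-base protein, was at 1.96, 2.14, 1.34 and 1.87 CPM against 0.837, 1.1, 0.949 and 0.918 CPM. Cfap44, which tethers an inner dynein arm, was at 8.59, 6.17, 5.52 and 4.46 CPM against 3.57, 4.16, 4.15 and 3.67 CPM. Neither overlapped, and their log2 fold changes were -0.95 (SE 0.25) and -0.67 (SE 0.25). Without OVX2_SCI7 replicates 1 and 2 they were -0.76 and -0.36.

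**Figure D2:**
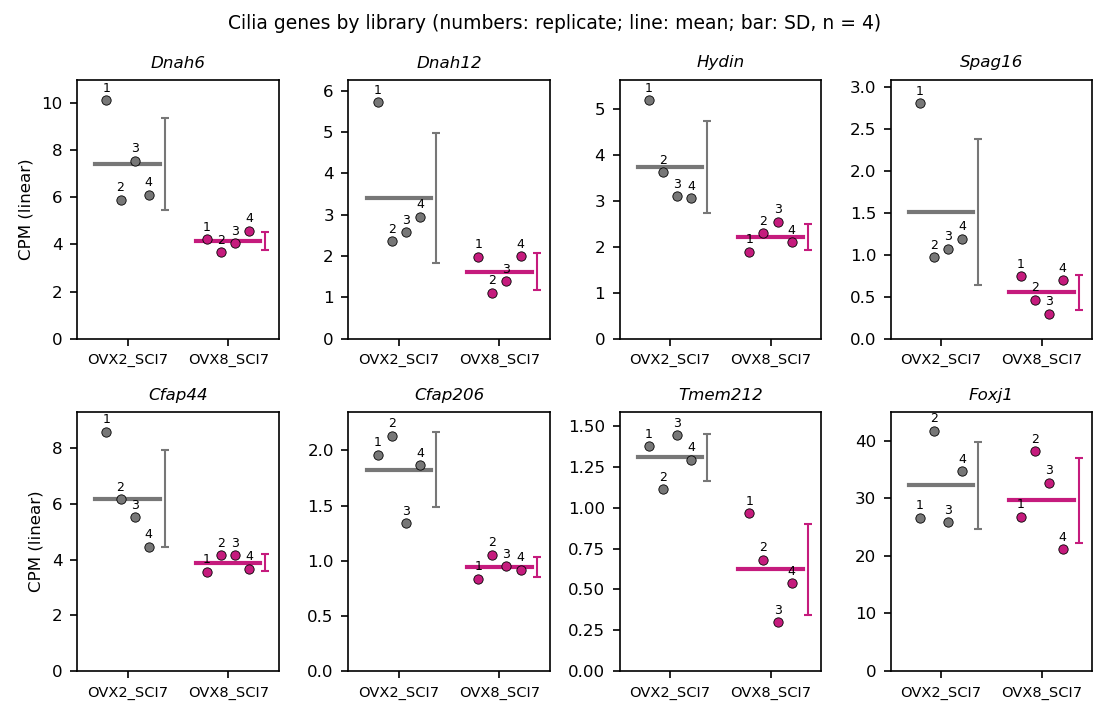
CPM on a linear axis for 8 cilia genes in the OVX2_SCI7 (grey) and OVX8_SCI7 (pink) libraries; numbers mark replicates, lines the means and bars the SD (n = 4). In all panels but Foxj1 the OVX8_SCI7 points lie below the OVX2_SCI7 points, and replicate 1 is the highest in Dnah6, Dnah12, Hydin, Spag16 and Cfap44. Apart from Foxj1, the genes were chosen by small p or, for Tmem212, after its values were seen, so the panels are not typical members. Of 114 tested cilia members 16 (14%) had this arrangement, against 1.08% of all genes tested.

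Together, the 4 axoneme lists had 66 tested members, of which 58 were below 0, against 55.5% of all genes tested. In 14 (21.2%) the groups did not overlap and OVX8_SCI7 was lower, against 1.08% of all genes. The lists were chosen with earlier results of these data known, so these shares are descriptions only. The median of the 66 members was -0.35 with all libraries, -0.23 without OVX2_SCI7 replicate 1, -0.37 without replicate 2 and -0.26 without both. Without both, 51 members were below 0 and 15 above. The size of the axoneme difference therefore moved with replicate 1 by over 1.5 times, while its sign was the same in all 4 fits. Correcting for GC content and length gave -0.37 with all libraries and -0.24 without both replicates.

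The list of ependymal markers, which shares no member with the axoneme lists, was below 0 in 8 of 8 members, with a median of -0.70. Ccdc153, a ciliated ependymal marker, was at 3.13, 2.04, 4.88 and 3.63 CPM against 2.69, 1.89, 1.60 and 1.57 CPM, and overlapped (log2 fold change -0.81, SE 0.33). Mia was at 4.56, 5.01, 7.18 and 9.95 CPM against 6.48, 4.91, 4.70 and 4.27 CPM, and overlapped. Tmem212, named after its values were seen, was at 1.38, 1.11, 1.45 and 1.3 CPM against 0.97, 0.683, 0.30 and 0.54 CPM, and did not overlap. By mean level the high libraries were OVX2_SCI7 replicates 3 and 4, with values of 0.57 and 0.46 against 0.12 and 0.10 in replicates 1 and 2. The low ones were OVX8_SCI7 replicates 3 and 4, at -0.66 and -0.58, while OVX8_SCI7 replicate 1 stood at 0.14. By summed CPM, which the most abundant markers set, the order was another: 131, 280, 157 and 161 CPM in OVX2_SCI7 against 172, 174, 140 and 95.1 CPM in OVX8_SCI7, and the groups overlapped. Without OVX2_SCI7 replicates 1 and 2 the median was -0.92, with 7 members below 0.

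Genes shared by motile and primary cilia had smaller median differences than the axoneme lists, though most were below 0 with all libraries. Intraflagellar transport genes, which carry cargo along the axoneme of all cilia, had a median of -0.08 over 23 members, 18 of them below 0. Without OVX2_SCI7 replicates 1 and 2 the median was 0.03, with 7 members below 0. Kifap3, a subunit of the kinesin-2 motor that is also abundant in neurons, was at 234.7, 170.0, 90.5 and 109.4 CPM against 115.2, 121.4, 129.9 and 122.8 CPM. Its log2 fold change was -0.31 (SE 0.28) and became 0.29 without both libraries. Neuron markers were high in those libraries, and the part of neuron content in this difference was not tested. Ift80 was at 45.1 CPM in replicate 1 and 25.2 to 31.5 CPM in the other 7 libraries. BBSome genes, of the membrane cargo adaptor, had a median of -0.16 with 9 of 10 below 0, and 0.02 with 5 below 0 without both. Ttc8, a BBSome subunit, was at 16.8, 16.0, 13.2 and 13.1 CPM against 13.3, 12.5, 12.1 and 13.9 CPM and overlapped. Over the whole class the median without both replicates was -0.12, with 72 members below 0 and 42 above.

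**Figure D3:**
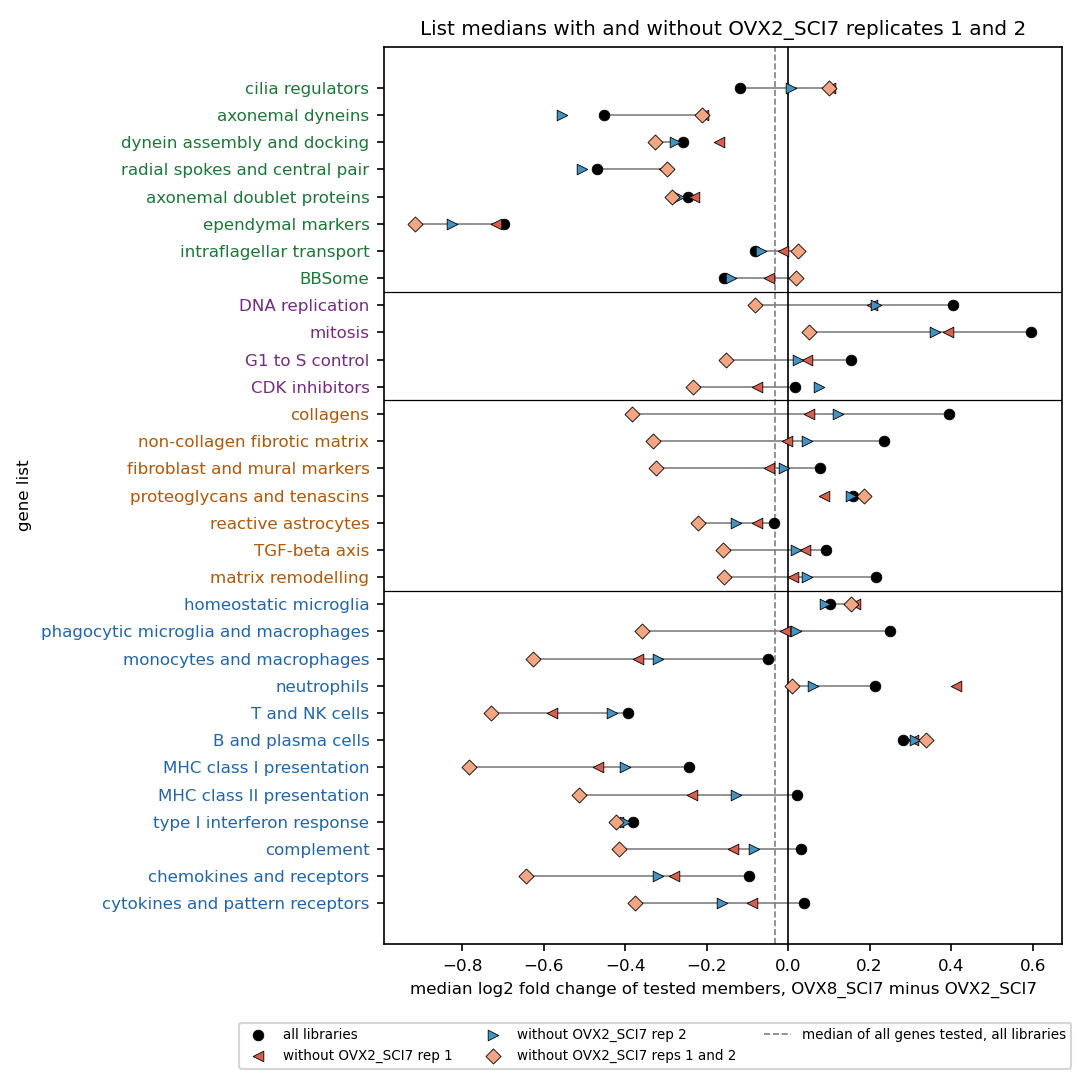
Median log2 fold change of the tested members of each list (x axis, log2, OVX8_SCI7 minus OVX2_SCI7), with all libraries (circles), without OVX2_SCI7 replicate 1 or 2 (triangles) and without both (diamonds); the dashed line is the median of all genes tested. Axoneme, ependymal and interferon lists stay left of 0 in all 4 settings, while collagens go from 0.40 to -0.38. The reactive astrocyte, MHC class I, T and NK cell, monocyte and chemokine lists also stay left of 0. Without OVX2_SCI7 replicate 3 or 4, settings not drawn, the MHC class I, monocyte and chemokine medians are above 0.

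Proliferation genes were higher in OVX8_SCI7 in value, and 0 of 91 passed the test. None had groups that did not overlap, an arrangement so rare among all genes (0.241% higher and 1.08% lower) that nothing is read from it. The median was 0.44, with 82 members above 0, against 44.5% above 0 for all genes tested. The mean class level was -0.94 and -0.79 in OVX2_SCI7 replicates 1 and 2, 0.25 and 0.41 in replicates 3 and 4, and 0.39, 0.22, 0.00 and 0.46 in OVX8_SCI7. The OVX2_SCI7 group thus held a low pair and a pair within the OVX8_SCI7 range. Replicate 1 was the lowest of the 8 libraries in 52 of the 91 genes and replicate 2 in 31. Without both, the median was -0.04, with 37 members above 0 and 54 below, and 49 members had the opposite sign. Without replicate 1 alone it was 0.23 and without replicate 2 alone 0.24. Leaving out replicate 3 or 4 in their place gave 0.64 and 0.65. Replicates 1 and 2 are the libraries with the most neuron and oligodendrocyte marker RNA, whose part in the difference was not tested.

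Many genes of mitosis carry a cell-cycle element, the CHR, by which they are kept off in resting cells. It was searched as TTTGAA on both strands and found in 18.3% of 27025 genes with a promoter (16% of promoters) and in 11 of 29 matched mitosis genes. The stretches of the 2 markers read most often as signs of division are shown, with the match nearest the start site in capitals. The Mki67 stretch holds the same letters again near its 5′ end, in lower case.
Mki67, chr7:135716452-135716497, − strand, 5′ to 3′: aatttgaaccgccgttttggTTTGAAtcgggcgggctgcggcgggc
Top2a, chr11:99024190-99024232, − strand, 5′ to 3′: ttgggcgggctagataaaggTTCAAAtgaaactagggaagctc
In Mki67 the letters lie on the gene's strand, and in Top2a on the opposite strand.

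Mitosis genes had the highest median of the class, 0.60 with 35 of 36 members above 0. Mki67, which marks cycling cells, was at 25.0, 31.8, 82.0 and 104.6 CPM in OVX2_SCI7 and at 112.6, 105.0, 92.4 and 151.9 CPM in OVX8_SCI7. Replicate 4 of OVX2_SCI7 lay within the OVX8_SCI7 values, and the log2 fold change of 0.92 (SE 0.62) was 0.31 without replicates 1 and 2. Top2a, which untangles DNA before division, was at 23.7, 22.4, 63.6 and 81.0 CPM against 75.3, 64.2, 56.8 and 101.0 CPM. Its 0.64 (SE 0.59) became 0.04 without both libraries. Ncapg, a condensin subunit, was at 2.81, 1.25, 5.31 and 6.43 CPM against 7.45, 6.49, 5.39 and 9.07 CPM, with the same low pair. The median of the mitosis list without both was 0.05.

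DNA replication genes had a median of 0.41 and 31 of 33 members above 0, and -0.08 without OVX2_SCI7 replicates 1 and 2. Lig1, which joins Okazaki fragments, was at 13.4, 21.3, 30.1 and 35.1 CPM against 36.6, 33.4, 30.3 and 37.0 CPM. Rrm1, a subunit of ribonucleotide reductase, was at 37.6, 30.5, 45.5 and 60.0 CPM against 58.6, 52.0, 48.0 and 70.4 CPM. In both genes the 2 low libraries lay below all others. G1 to S control genes had a median of 0.15, and -0.15 without both. In that list E2f8, a repressor of late S phase, had a log2 fold change of 0.64 (SE 0.45). Rb1, the retinoblastoma brake on S phase, was at 87.3 CPM in replicate 1 and 45.1 to 63.5 CPM in the other 7 libraries. CDK inhibitors, which halt the cycle, had a median of 0.02 and -0.23 without both. Cdkn1a was at 57.9, 77.6, 88.8 and 95.2 CPM against 79.4, 73.9, 66.9 and 69.9 CPM, and Cdkn1b had a log2 fold change of -0.13 (SE 0.15).

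Scar genes showed the widest spread within OVX2_SCI7. Of 101 tested members 77 were above 0, with a median of 0.18, and 0 were called. The median was 0.10 with the GC and length offset and 0.37 by limma-voom. Without OVX2_SCI7 replicates 1 and 2 the median was -0.23, 78 members were below 0, and 62 members had the opposite sign. The class level was -1.27, -0.62, 0.79 and 0.05 in OVX2_SCI7 replicates 1 to 4 and 0.20, 0.25, 0.07 and 0.53 in OVX8_SCI7. The OVX2_SCI7 libraries thus lay on both sides of the OVX8_SCI7 range. Replicate 1 was the lowest of the 8 libraries in 67 of 101 genes. The median was 0.02 without replicate 1, 0.04 without replicate 2, 0.54 without replicate 3 and 0.14 without replicate 4. It was 0.11 without OVX8_SCI7 replicate 4. The order of the OVX2_SCI7 libraries is the reverse of that by summed neuron markers (6960, 5730, 1440 and 3030 CPM), whose part was not tested.

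Collagens, the fibrous core of the scar, were above 0 in 16 of 16 members, with a median of 0.40. Without OVX2_SCI7 replicates 1 and 2 all 16 were below 0, with a median of -0.38, and without replicate 3 alone the median was 1.72. Replicate 1 was the lowest and replicate 3 the highest of the 8 libraries in all 16 genes. Col1a1, of type I collagen, was at 189, 668, 10340 and 2320 CPM in OVX2_SCI7 and at 3540, 3942, 2804 and 4742 CPM in OVX8_SCI7. The lowest and highest OVX2_SCI7 libraries enclosed the whole other group, and the log2 fold change was 0.15 (SE 0.95), or -0.75 (SE 0.74) without replicates 1 and 2. Col12a1, a fibril-associated collagen, was at 59.2, 106.9, 780.2 and 166.3 CPM against 323.9, 376.1, 283.9 and 635.5 CPM. Col5a3 was at 16.8 CPM in replicate 1 and 83.8 CPM in replicate 3, with 47.2 to 79.3 CPM in OVX8_SCI7. Summed collagen levels ranged from 1110 to 35700 CPM in OVX2_SCI7 and from 11100 to 20500 CPM in OVX8_SCI7.

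Non-collagen matrix genes had a median of 0.24 with 18 of 19 above 0, and -0.33 with 17 below 0 without both replicates. Fn1, the fibronectin of the early scar core, was at 241, 573, 2372 and 1244 CPM against 1415, 1693, 1429 and 2302 CPM. Its log2 fold change of 0.63 (SE 0.66) became -0.08. Postn, which encodes periostin of fibrotic tissue, was at 15.6, 46.7, 378.1 and 127.6 CPM against 248.7, 234.2, 161.7 and 491.1 CPM. Here 3 of the 4 OVX2_SCI7 libraries lay below the other group, and the 1.00 (SE 0.80) was 0.17 without replicates 1 and 2. Eln, elastin, was at 53.5, 148, 1839 and 436 CPM against 924, 1108, 843 and 1756 CPM, the same arrangement.

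Fibroblast and mural cell markers had a median of 0.08, and -0.32 with 10 of 10 below 0 without both. Fap, a protease of activated fibroblasts, was at 1.27, 2.83, 19.3 and 8.81 CPM against 13.2, 10.3, 9.29 and 21.7 CPM, and Dpt, dermatopontin, had a log2 fold change of -0.35 (SE 0.23). Matrix remodelling enzymes had a median of 0.22, and -0.16 without both. Mmp14, a membrane collagenase, was at 47.5, 111.5, 823.3 and 380.6 CPM against 644.4, 693.1, 479.4 and 779.3 CPM. The protease gene Adamts1 had a log2 fold change of 0.49 (SE 0.39), which was 0.00 without both. In the TGF-beta axis, which drives fibroblasts to make matrix, the median was 0.09, and -0.16 without both. Tgfb1, the ligand, was at 19.6, 44.4, 127.7 and 105.2 CPM against 94.3, 110.8, 97.7 and 105.6 CPM. Its receptor gene Tgfbr2 had a log2 fold change of 0.29 (SE 0.35).

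The glial part of the scar differed less. Gfap, the intermediate filament of reactive astrocytes, was at 6437, 7932, 3854 and 6534 CPM against 5836, 6802, 6799 and 5610 CPM. The low library was OVX2_SCI7 replicate 3, the one with the most collagen, and the log2 fold change was 0.02 (SE 0.23). The 19 reactive astrocyte genes had a median of -0.03, and -0.22 without replicates 1 and 2. Cd109 had a log2 fold change of 0.43 (SE 0.29) and S1pr3 of -0.34 (SE 0.23). Proteoglycans and tenascins, many of which block axon growth, had a median of 0.16, and 0.19 without both; with the GC and length offset it was -0.01, with 6 members above 0 and 6 below. Chst11, which sulfates chondroitin chains, was at 75.0, 66.2, 73.6 and 77.2 CPM against 80.6, 78.6, 78.5 and 99.7 CPM. It was the only scar member of 101 whose groups did not overlap, against 0.241% of all genes with higher values, and its log2 fold change of 0.21 (SE 0.16) was 0.12 without OVX8_SCI7 replicate 4 and 0.12 with the GC and length offset. Hapln1, a link protein of perineuronal nets, was at 16.3 CPM in replicate 1 and 3.75 to 5.99 CPM in the other 7 libraries.

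**Figure D4:**
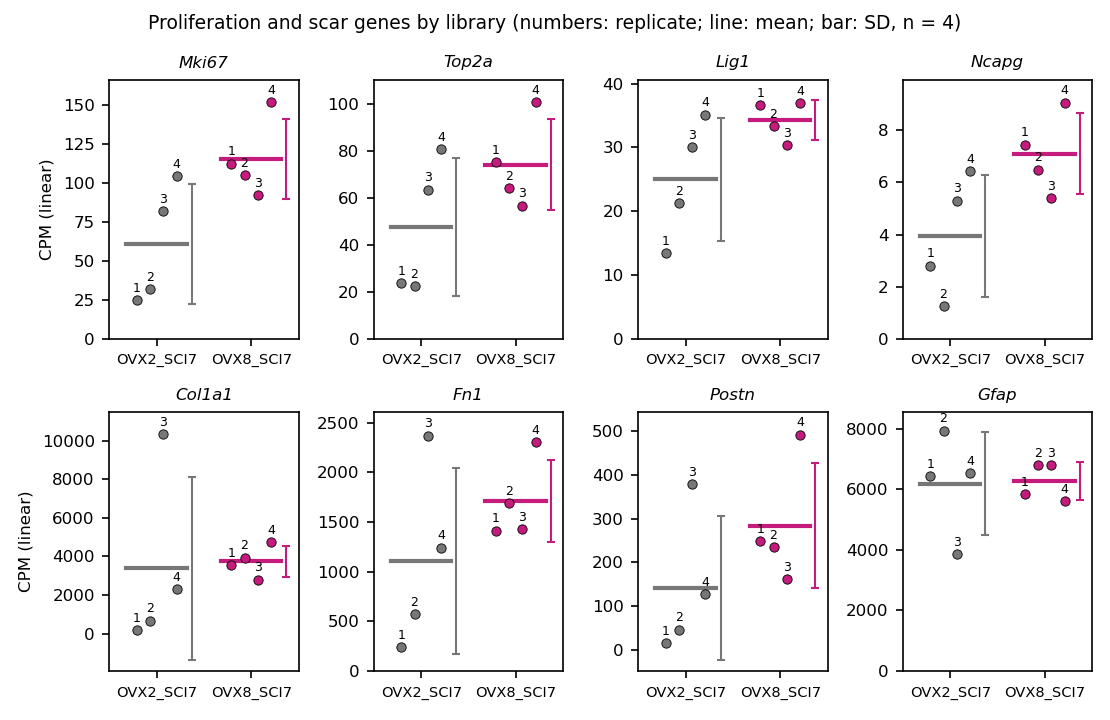
CPM on a linear axis for 4 proliferation and 4 scar genes in the OVX2_SCI7 (grey) and OVX8_SCI7 (pink) libraries; numbers mark replicates, lines the means and bars the SD (n = 4), which reach below 0 where the spread exceeds the mean. OVX2_SCI7 replicates 1 and 2 are the 2 lowest libraries in every panel but Gfap.

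Immune genes showed no common direction with all libraries. Of 157 tested members of 175 listed, 75 were above 0 and 82 below, with a median of -0.01, and 0 were called. Without OVX2_SCI7 replicates 1 and 2, 132 were below 0 with a median of -0.44, and 64 had the opposite sign. The class level was -0.72, -0.46, 0.40 and 0.49 in OVX2_SCI7 and 0.16, -0.04, 0.04 and 0.13 in OVX8_SCI7, between the pairs of OVX2_SCI7. The mean level was thus 0.14 higher in OVX8_SCI7 although the median fitted fold change was below 0. The median was -0.19 and -0.18 without replicates 1 and 2 and 0.16 and 0.09 without replicates 3 and 4. Of all genes tested, 11% had every OVX8_SCI7 value below OVX2_SCI7 replicates 3 and 4, and 55 of the immune genes did. The opposite arrangement was seen in 9.36% of all genes and in 7 immune genes.

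Type I interferon response genes differed by about the same amount with and without those libraries. These genes, switched on through the receptor for type I interferons, act against viral nucleic acid and are also known from injured tissue. All 25 were below 0, with a median of -0.38, and -0.42 without replicate 1, -0.40 without replicate 2 and -0.42 without both. With both left out, 24 were below 0. The mean level of the list per library was -0.09, 0.10, 0.21 and 0.46 in OVX2_SCI7 and -0.08, -0.26, -0.02 and -0.31 in OVX8_SCI7, and OVX2_SCI7 replicate 1 lay among the other group. Replicate 4 was the highest of the 8 libraries in 14 of the 25 genes, and the median without it was -0.31. In 5 of the 25 (20%) the groups did not overlap, against 1.08% of all genes tested. That list too was chosen with earlier results of these data known. Oas2, a sensor of double-stranded RNA, was at 7.37, 7.38, 10.5 and 9.69 CPM against 4.41, 4.50, 7.24 and 5.56 CPM. Its log2 fold change was -0.69 (SE 0.22), and -0.89 without both replicates. Xaf1, a pro-apoptotic interferon target, was at 17.0, 15.6, 17.0 and 19.2 CPM against 14.2, 12.8, 14.0 and 11.8 CPM (log2 fold change -0.38, SE 0.14). Rtp4 and Gbp3, also without overlap, were named after their values were seen. Rtp4, a chaperone of receptor transport that interferon induces, was at 12.4, 11.4, 13.3 and 16.6 CPM against 10.7, 8.88, 9.69 and 9.12 CPM.

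Interferon target promoters often hold a repeat of GAAA. Searched as GAAA, NN and GAAA in a row, it was found on either strand in 3.46% of genes with a promoter (2.98% of promoters) and in 10 of 17 matched interferon genes. It is shown for Gbp3, an interferon-induced GTPase, at 27.2, 27.3, 26.2 and 32.6 CPM in OVX2_SCI7 and 21.2, 18.9, 25.7 and 22.4 CPM in OVX8_SCI7, where its letters lie on the opposite strand.
Gbp3, chr3:142559985-142560034, + strand, 5′ to 3′: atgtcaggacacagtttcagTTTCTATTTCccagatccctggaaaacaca
The 2 groups of values stand just apart, by under 1 CPM between replicate 3 of each.

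Chemokines, which draw leukocytes into the lesion, had a median of -0.09, and -0.64 without OVX2_SCI7 replicates 1 and 2. Cxcl9, an interferon-gamma target that attracts T cells, was at 2.44, 1.81, 3.91 and 4.15 CPM against 1.32, 0.869, 0.999 and 1.24 CPM. The groups did not overlap, and the log2 fold change of -1.47 (SE 0.47) was -1.86 without both. Cxcl10, of the same family, was at 7.79, 11.4, 9.65 and 17.8 CPM against 9.83, 7.45, 6.59 and 4.64 CPM and overlapped. Cytokines and pattern receptors had a median of 0.04, and -0.38 without both. Il1b, an early inflammatory cytokine, was at 5.41 CPM in OVX2_SCI7 replicate 3 and at 0.674 to 1.20 CPM in the other 7 libraries. Tlr3, a receptor for double-stranded RNA, was at 60.5 CPM in replicate 1 and at 21.0 to 32 CPM in the others.

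MHC class I presentation, by which cells show peptides to CD8 T cells, had 9 of 10 genes below 0 with a median of -0.24. In all 10 genes every OVX8_SCI7 library lay below OVX2_SCI7 replicates 3 and 4, against 11% of all genes tested. In 9 of the 10 OVX2_SCI7 replicate 1 was the lowest of the 8 libraries, and in the other it was replicate 2. B2m, the light chain of class I, was at 428, 386, 821 and 868 CPM against 649, 418, 451 and 496 CPM. Nlrc5, the class I transactivator, was at 10.4, 12.7, 17.8 and 30.0 CPM against 13, 11.8, 12.9 and 13.3 CPM. Its log2 fold change of -0.47 (SE 0.30) was -0.91 (SE 0.25) without both. The list median was -0.78 without both and 0.05 and 0.02 without replicate 3 or 4, so the direction turned with which OVX2_SCI7 libraries were kept. MHC class II genes had a median of 0.02, and -0.51 without both. Ciita, their transactivator, was at 1.49, 3.71, 7.88 and 7.15 CPM against 4.23, 3.23, 4.10 and 4.37 CPM, and H2-DMb1, a peptide-loading gene, had a log2 fold change of 0.26 (SE 0.42).

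Markers of phagocytic microglia and macrophages, the debris-clearing state, had a median of 0.25 with 14 of 18 above 0. Without both replicates it was -0.36 with 16 of 18 below 0. Lpl, a lipase of this state, was at 101, 97.3, 275 and 597 CPM against 657, 419, 369 and 664 CPM, and Itgax had a log2 fold change of 0.74 (SE 0.59). Apoe, a lipid carrier made by astrocytes and activated microglia, was at 3048, 6900, 22260 and 16530 CPM against 14030, 11710, 10710 and 9852 CPM. The low pair and the high pair of OVX2_SCI7 lay on either side of all OVX8_SCI7 libraries, and the log2 fold change of -0.07 (SE 0.50) was -0.74 (SE 0.34) without the low pair. Ptprc, the pan-leukocyte antigen CD45, showed the pair as well, at 56.5, 54.1, 136.6 and 114.5 CPM against 96.7, 77.2, 88.1 and 129.7 CPM. Homeostatic microglial genes had a median of 0.10, and 0.15 without both. Cx3cr1, the fractalkine receptor, was at 213, 235, 196 and 278 CPM against 256, 241, 285 and 271 CPM, and Selplg had a log2 fold change of 0.29 (SE 0.18).

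Monocyte and macrophage markers had a median of -0.05, and -0.63 without both. Ly6c2, of inflammatory monocytes, was at 4.61, 3.90, 3.59 and 6.74 CPM against 2.34, 3.79, 2.10 and 2.92 CPM. Only OVX8_SCI7 replicate 2 exceeded an OVX2_SCI7 library, and its log2 fold change was -0.75 (SE 0.26), or -0.88 without both. Itgam had a log2 fold change of 0.36 (SE 0.32). Complement genes had a median of 0.03, and -0.41 without both, with C1s1 at 58.1 CPM in OVX2_SCI7 replicate 3 and 13.8 to 28.4 CPM in the others. Cfb was at 2.97, 10.7, 30.4 and 6.84 CPM against 7.27, 8.01, 10.4 and 8.64 CPM.

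Neutrophil genes had a median of 0.21, and 0.01 without both. Mpo, the granule peroxidase, was at 0.795, 1.02, 0.482 and 1.35 CPM against 0.926, 3.32, 3.75 and 1.73 CPM, with a log2 fold change of 1.41 (SE 0.50). Cxcr2, a chemokine receptor of mature neutrophils, had -0.91 (SE 0.44). Many lymphocyte markers did not pass the filter on low counts. Of 15 T and NK cell markers 6 were tested, with a median of -0.39, and -0.73 without both; of 7 B and plasma cell markers 4 were tested, with a median of 0.28. Il2rb and Lck, of T and NK cells, had log2 fold changes of -0.48 (SE 0.37) and -0.30 (SE 0.36). Ighm, the mu heavy chain, was at 25.2, 28.8, 16.7 and 17.6 CPM against 23.8, 23.4, 38.4 and 21.3 CPM and overlapped, and Cd79b had 0.29 (SE 0.33).

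**Figure D5:**
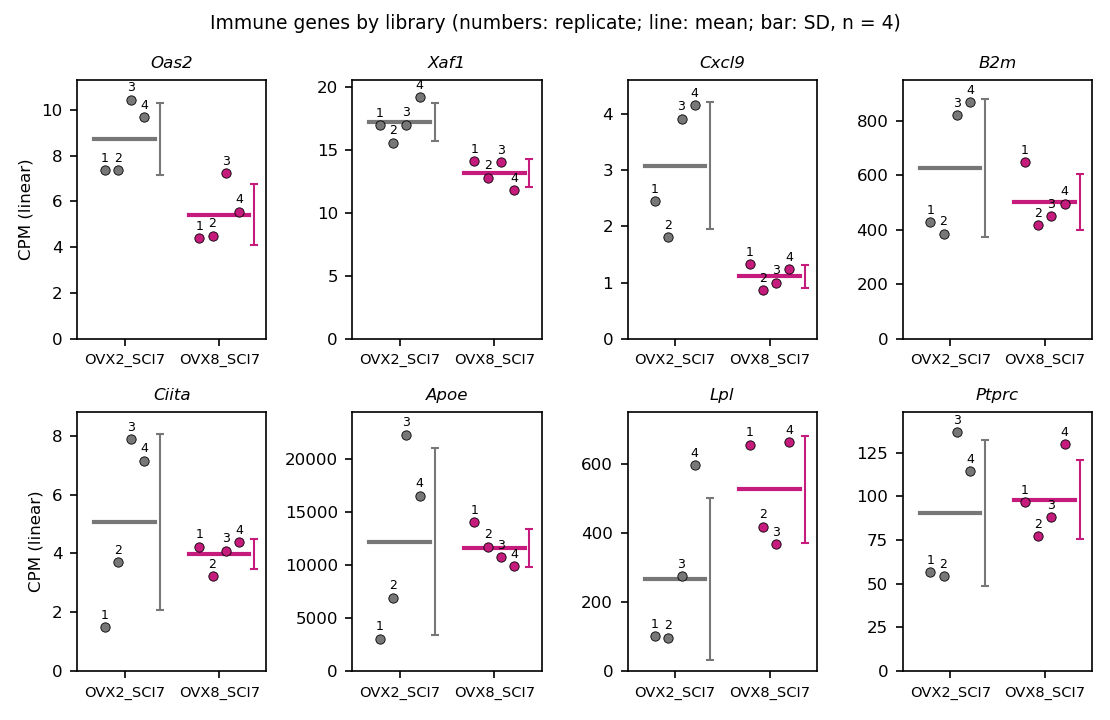
CPM on a linear axis for 8 immune genes in the OVX2_SCI7 (grey) and OVX8_SCI7 (pink) libraries; numbers mark replicates, lines the means and bars the SD (n = 4). Oas2, Xaf1 and Cxcl9, chosen by small p in their lists, do not overlap between the groups. Of 157 tested immune members 6 (3.82%) lay apart and lower in OVX8_SCI7, against 1.08% of all genes tested. In B2m, Ciita, Apoe, Lpl and Ptprc OVX2_SCI7 replicates 1 and 2 lie below replicates 3 and 4.

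The 10 genes of smallest p with a mean of at least 1 CPM included 2 members of the cilia lists, Dnah6 and Cfap206, described above. Mapk15, Ttll6 and Odf3b are in none of the lists. Mapk15, a kinase of ciliated cells, was at 2.23, 1.72, 3.16 and 2.02 CPM against 0.793, 1.34, 1.15 and 1.03 CPM. Ttll6, which adds glutamate chains to tubulin, was at 2.23, 1.95, 1.93 and 1.76 CPM against 0.837, 1.3, 0.999 and 1.08 CPM. Odf3b had a log2 fold change of -1.0 (SE 0.27). The log2 fold changes of Mapk15, Ttll6 and Odf3b without OVX2_SCI7 replicates 1 and 2 were -1.25, -0.80 and -0.83. The groups did not overlap in these 3 genes, nor in any other of the 10 but Actn3. All 10 were taken by small p, so nothing is read from that.

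Among the other 5, Alox15, an enzyme that oxygenates polyunsaturated fatty acids into lipid mediators, was at 0.53, 0.696, 0.161 and 0.259 CPM against 1.41, 1.71, 1.85 and 2.81 CPM. Its log2 fold change of 2.2 (SE 0.41) was 3.16 without both replicates. In OVX2_SCI7 the latter rests on replicates 3 and 4, where 3 counts correspond to 0.161 and 0.155 CPM, so their values are near that level. For this gene edgeR's adjusted p was 0.999, while DESeq2's was 0.00505. Alb, the plasma protein albumin, was at 16.1, 2.83, 9.27 and 3.06 CPM against 1.5, 1.18, 1.60 and 1.94 CPM, with DESeq2's adjusted p at 0.0379. Slc10a6, a carrier of sulfated steroids, was at 0.689, 2.55, 2.47 and 1.3 CPM against 0.309, 0.373, 0.45 and 0.594 CPM. Etohd2 had a log2 fold change of -0.73 (SE 0.18). Actn3, of fast muscle fibres, was at 1.01, 1.53, 1.66 and 1.61 CPM against 9.65, 1.46, 3.60 and 4.27 CPM and overlapped. All 8 skeletal muscle markers, Actn3 among them, were above 0, with summed levels of 2.28 to 19.4 CPM in OVX2_SCI7 and 5.37 to 67.4 CPM in OVX8_SCI7.

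Esr1, the estrogen receptor alpha, was at 6.95, 7.52, 8.47 and 5.96 CPM in OVX2_SCI7 and at 7.36, 7.08, 7.24 and 10.1 CPM in OVX8_SCI7, with a log2 fold change of 0.14 (SE 0.25). Pirt, a gene of sensory neurons of the dorsal root ganglion, was at 0.424, 127.5, 22.2 and 0.467 CPM against 0.176, 18.1, 0.35 and 0.432 CPM. The 10 sensory neuron markers summed to 595 and 111 CPM in OVX2_SCI7 replicates 2 and 3, to 99.8 CPM in OVX8_SCI7 replicate 2 and to 5.65 to 32.4 CPM in the other 5 libraries.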

How the data were processed

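Bulk RNA-seq of 12 libraries in 3 groups of 4 was used as deposited by the authors. The submitters' processing notes name fastp 0.23.4, HISAT2 2.2.1, RSEM 1.3.3 and the build GRCm39, without their order or settings; the annotation and the strand of counting are not given in the sources used here, so overlapping genes and near-identical copies are uncertain. The deposited table of expected counts (57180 genes) was rounded to whole numbers, and the deposited TPM table served 1 alternative; its transcript lengths are unknown. Of all genes, 525 had no symbol (0.0786% to 0.158% of counts). In the 2 tables used, 6 value columns matched no sample and were not used.

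The counts of all 12 libraries were fitted together by group in edgeR 4.0.16 (filterByExpr, TMM, robust quasi-likelihood F-test, 9 residual degrees of freedom), with Benjamini-Hochberg adjustment over 17820 genes and a threshold of 0.05; the SE is the log2 fold change over the square root of F. CPM used TMM library sizes. List levels used log2 CPM with a prior count of 2. Alternatives, 22 planned and 2 added after seeing the data (quality weights, and the GC offset without 2 libraries), used edgeR, limma 3.58.1 and DESeq2 1.42.0. Fits were tested on simulated data with an equal spread in all groups that was smaller than in these libraries. That test does not show how the fits behave at the spread seen here. Genes named are the 10 of smallest p with a mean of at least 1 CPM (since fewer than 5 were called), the 2 of smallest p in each of 31 lists, and 10 set genes; 79 in all, and others are said to be chosen later. The members and lists were chosen with earlier results of these data known. GC and length came from GENCODE M21 by gene identifier (97.9% of tested genes). Promoters are RefSeq's. Fcrls was not analysed here, and the values of 1 interferon list member are not reported here. P-values measure the spread between these samples.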

Additional observations from a re-analysis of the deposited data

Results flagged for a closer look

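In each group of 4, a library was singled out when its gap to the nearest of the others, over the group's range, exceeded Dixon's 95% critical value; 176 groups of values were checked, 15 stood out, and chance alone marks about 1 in 20. In OVX2_SCI7, replicate 1 stood apart for Rfx3 at 25.3 CPM, Spag16 at 2.81 CPM, Odad3 at 1.22 CPM (low), Selplg at 66.1 CPM (low) and a mitochondrial share of 8.33%. Replicate 2 did so for its total of 20371524 counts. Replicate 3 did so for Col12a1 at 780 CPM, C1s1 at 58.1 CPM and Il1b at 5.41 CPM.

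In OVX8_SCI7, replicate 4 stood apart for Chst11 at 99.7 CPM, Esr1 at 10.1 CPM and Tgfbr2 at 251 CPM, all above the other 3. Replicate 2 did so for Pirt at 18.1 CPM and for the summed sensory neuron markers at 99.8 CPM. Replicate 3 did so for Ighm at 38.4 CPM.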

How the results depend on the processing

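The count of genes called was 0 in the reported fit and in all alternatives but 3: 6 with DESeq2 (Alox15, Alb, Rps12l1, Rpl21-ps15, Gm28439 and Gm10095), 1 with limma-voom quality weights (Alox15) and 1 without OVX8_SCI7 replicate 1 (Rps12l1). Leaving out 1 library of 12 gave 0 to 1 called genes, and 0 called members in each class. At an unadjusted p under 0.05 these fits held 277 to 1436 genes, the most without OVX2_SCI7 replicate 3, and leaving out OVX2_SCI7 replicates 1 and 2 gave 1141 (6.19%), with 0 called.

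The cilia median was -0.22 as reported, -0.11 by limma-trend on log2(TPM + 1), -0.12 without OVX2_SCI7 replicates 1 and 2 and -0.12 with the GC and length offset besides; the cause was not tested. The immune median was -0.44 without both. Leaving out 1 library gave medians of -0.27 to -0.17 for cilia, 0.23 to 0.65 for proliferation, 0.02 to 0.54 for scar and -0.19 to 0.16 for immune genes. With quality weights, in which OVX2_SCI7 replicates 1 and 2 had weights of 0.165 and 0.357, the proliferation median was -0.05. The scar median stayed above 0 with these weights (0.11) and went below 0 only in the fits that left out both libraries, and that of immune genes also turned sign with the tool (0.13 by limma-voom).

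The labels do not say that replicate numbers pair mice. Same-numbered deviations correlated at -0.175, 0.403, -0.431 and -0.023, values too few to exclude a pairing. With the replicate number as a block, 0 genes and 0 class members were called, 330 genes had an unadjusted p under 0.05, and the medians were -0.22 for cilia, 0.49 for proliferation, 0.27 for scar and 0.03 for immune genes.

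Of 1877 values of the 79 named genes under the alternatives, 68 had the opposite sign, over 27 genes, and 14 of them arose without OVX2_SCI7 replicates 1 and 2; 3 values passed the threshold. Many axoneme genes lie near 1 to 5 CPM, so counting error limits single genes. Groups of 4 with 2 libraries left out rest on the spread of all groups.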
